A study of Mus musculus with 19 samples.

Results

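Strong TEAD peaks that lay away from every called YAP peak are described here. They were the peaks of the merged TEAD list at 7 d with a pileup of at least 80 (the number of fragments stacked on the summit) that shared not even 1 bp with a peak of the YAP list at 7 d. The rule kept 3439 of the 38984 TEAD peaks of that list, or 8.82%. They made up 74.2% of the 4637 strong peaks (pileup of at least 80), and the other 1198 strong peaks overlapped a YAP peak and served as the comparison. The members were thus chosen by their TEAD pileup and YAP overlap at 7 d, and these values are given as a description without a test.

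Chromatin from whole mouse liver on a C57BL/6 background was immunoprecipitated for YAP or for TEAD and sequenced. All mice carried ROSA26-rtTA-IRES-EGFP, an allele that makes the doxycycline-dependent activator after Cre recombination, and per the study's methods an albumin-driven Cre recombinase directed it to hepatocytes. WT livers had this allele without the YAP transgene and came from mice on doxycycline food for 7 days, whereas tetYAP livers, which also held a doxycycline-inducible and constitutively active YAP allele, came from mice fed doxycycline for 3 days (3 d) or 7 days (7 d). There were 3 replicates per group, except 4 for TEAD at 7 d, and the authors merged them into 1 peak list per group. The age of the mice was not given in the sources used here. Induction was aimed at hepatocytes, and whether it was restricted to them was not tested here. The chromatin came from all liver cells, and a peak cannot be assigned to a cell type. Per the study's methods, the TEAD antibody was raised to TEAD4 and also recognises TEAD1 and TEAD3, and tissue for YAP was fixed with a protein-protein crosslinker before formaldehyde, whereas tissue for TEAD was fixed with formaldehyde alone.

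TEAD proteins (TEAD1 to TEAD4) are transcription factors that bind DNA through the letters GGAATG or close variants. YAP does not bind DNA by itself and reaches chromatin largely through TEADs. The Hippo kinases LATS1 and LATS2 phosphorylate YAP and keep it out of the nucleus, and TEADs can also pair with other cofactors, such as TAZ and the VGLL proteins, so a TEAD site need not carry YAP.

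Selected windows show the letters on which the comparisons turn. Each is 200 bp around a TEAD summit at 7 d, on the + strand of mm9. The first pair are members of high pileup with the TEAD letters, in capitals, read as GGAATG or its reverse complement CATTCC. The third window is a member at the start of Tead4, the gene of the factor itself, and it held neither form.
Cry2 intron, member, chr2:92268193-92268392: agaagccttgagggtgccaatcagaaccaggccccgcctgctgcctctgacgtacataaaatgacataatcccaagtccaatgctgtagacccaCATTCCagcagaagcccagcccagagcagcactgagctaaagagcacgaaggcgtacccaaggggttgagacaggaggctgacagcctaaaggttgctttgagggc
Plekhg2 promoter, member, chr7:29157731-29157930: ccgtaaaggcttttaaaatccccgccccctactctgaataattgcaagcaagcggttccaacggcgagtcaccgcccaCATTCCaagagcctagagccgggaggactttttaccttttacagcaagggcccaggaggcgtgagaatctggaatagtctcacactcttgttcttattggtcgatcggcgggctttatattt
Tead4 promoter, member, chr6:128252031-128252230: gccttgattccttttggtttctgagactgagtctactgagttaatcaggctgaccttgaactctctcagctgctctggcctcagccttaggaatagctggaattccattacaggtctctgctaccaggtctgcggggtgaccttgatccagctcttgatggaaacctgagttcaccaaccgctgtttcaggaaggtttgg
The next pair are promoter members without the TEAD letters. Capitals there mark GGGCGGG or CCCGCCC, the letters of SP and KLF factors, which are common in promoters rich in CpG.
Cic promoter, member, chr7:26053158-26053357: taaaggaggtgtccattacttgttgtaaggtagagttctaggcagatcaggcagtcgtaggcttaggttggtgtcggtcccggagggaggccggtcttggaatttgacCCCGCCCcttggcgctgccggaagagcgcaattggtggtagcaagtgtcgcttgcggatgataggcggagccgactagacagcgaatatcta
Rcan1 promoter, member, chr16:92400340-92400539: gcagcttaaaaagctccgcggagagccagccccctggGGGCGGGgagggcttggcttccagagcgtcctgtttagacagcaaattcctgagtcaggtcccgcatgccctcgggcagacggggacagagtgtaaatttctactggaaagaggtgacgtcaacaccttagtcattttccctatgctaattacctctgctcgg
The last 4 windows carry TEAD letters in capitals again. They are the strong YAP-overlapping peak of highest pileup, in an intron of Plcb1, then a pair of YAP-overlapping peaks with a tandem of these letters, and last a member with that tandem on the other strand, in a coding exon of St13.
Plcb1 intron, with YAP, chr2:134626081-134626280: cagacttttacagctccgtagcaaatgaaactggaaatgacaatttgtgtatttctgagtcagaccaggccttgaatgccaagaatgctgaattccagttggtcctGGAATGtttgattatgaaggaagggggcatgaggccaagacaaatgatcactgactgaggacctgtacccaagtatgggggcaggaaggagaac
Pim3 flank, with YAP, chr15:88698081-88698280: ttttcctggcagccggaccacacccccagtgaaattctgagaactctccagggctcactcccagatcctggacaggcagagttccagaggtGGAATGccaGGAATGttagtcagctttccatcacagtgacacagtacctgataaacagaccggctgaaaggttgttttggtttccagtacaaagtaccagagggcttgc
Gm10295 flank, with YAP, chr7:78609063-78609262: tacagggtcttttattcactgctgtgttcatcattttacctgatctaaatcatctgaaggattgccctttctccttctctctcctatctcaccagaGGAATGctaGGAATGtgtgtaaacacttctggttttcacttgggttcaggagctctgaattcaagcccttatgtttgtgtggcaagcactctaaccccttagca
St13 coding exon, member, chr15:81196781-81196980: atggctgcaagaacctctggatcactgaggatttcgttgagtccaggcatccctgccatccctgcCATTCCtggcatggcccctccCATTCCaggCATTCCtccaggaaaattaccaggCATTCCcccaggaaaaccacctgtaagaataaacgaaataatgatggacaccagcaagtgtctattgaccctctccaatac
In the tandem, 2 copies of GGAATG stand on 1 strand with 3 bases between them. The St13 window held 4 copies of the TEAD letters, and each of the Pim3 and Gm10295 windows held 2. Both of the latter are intergenic and are named by the nearest start only. The summit was at 5302 bp from that of Pim3, but at -112791 bp from that of Gm10295.

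The merged libraries behind the 6 lists ranged from 34260362 tags (YAP at 7 d) to 55032002 tags (TEAD at 3 d), and 1 control library of 167176362 tags served all of them. With 1 list per group there was no spread between replicates to set a difference against. Intervals in brackets are 95% intervals. They cover counting over peaks only, and peaks from a single list do not stand for separate mice. As a check of the tissue, all 5 hepatocyte marker genes had a TEAD peak of any strength at a promoter at 7 d. So did 0 of 5 Kupffer cell, 1 of 6 endothelial, 1 of 7 stellate cell and 0 of 5 lymphoid marker genes. Over all protein-coding genes the share was 37.7%, and these lists are short. None of these marker genes had a strong TEAD peak at its promoter, beside 3.95% of all protein-coding genes with a member and 0.967% with a strong peak with YAP.

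The members were mostly the lower part of the strong peaks. Their TEAD pileup ranged from 80 to 410 with a median of 103, against 80 to 354 with a median of 146 at strong peaks with YAP. The median fold enrichment over the local background was 22.6 for members and 32.5 for peaks with YAP. The share of strong peaks that overlapped a YAP peak rose with pileup, from 8.50% (145 of 1705) at 80 to under 100, to 18.1% at 100 to under 120, 31.8% at 120 to under 150 and 59.2% (573 of 968) at 150 and more, whereas 3.58% of all TEAD peaks at 7 d overlapped one. Because pileup differed so much between the 2 sets, the main comparisons below are also given after standardisation, that is, as the difference within these 4 pileup classes averaged with the size of each class as its weight. At the limit itself, 108 members had a pileup of exactly 80 and 111 peaks without YAP had 79. The lowest members in genome order, nearest to the starts of Gm5828, 1700001G17Rik and Il1r1, had fold enrichments of 18.9, 18.3 and 13.3, and the peaks just outside, near Terf1, Ercc5 and Pgap1, had 18.6 each.

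**Figure D1:**
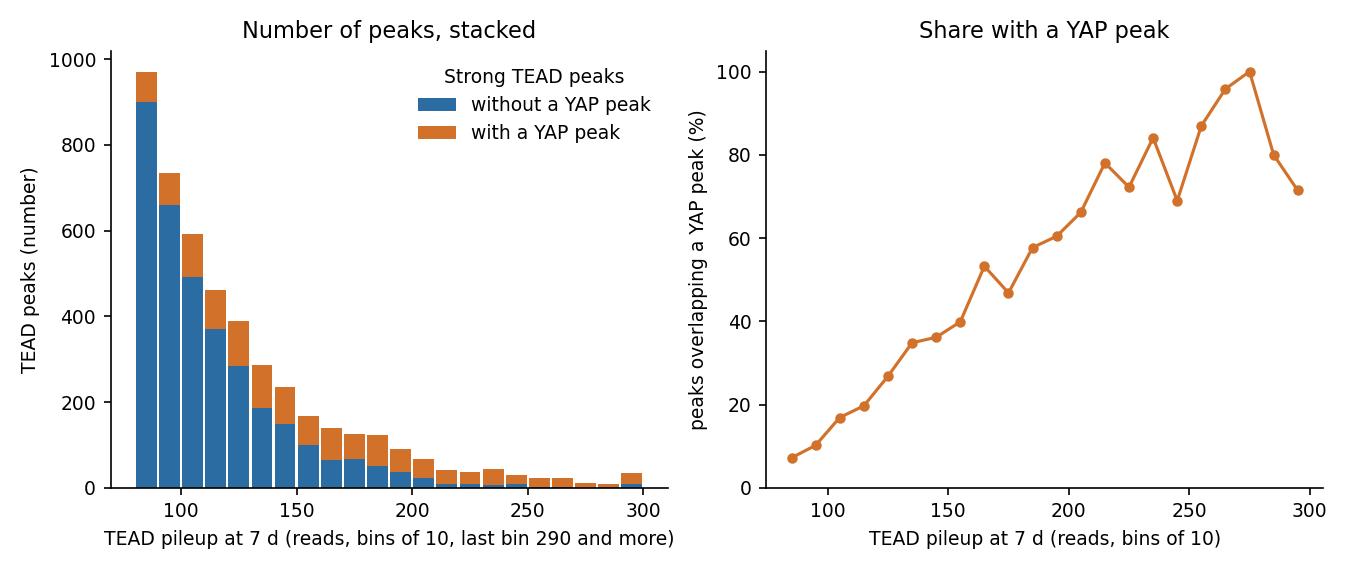
Left, number of strong TEAD peaks at 7 d (y axis) by TEAD pileup in reads (x axis, bins of 10), stacked as peaks without a YAP peak (blue) and with one (orange). Right, percentage of peaks in each bin that overlapped a YAP peak. The share rises from 7.21% in the lowest bin to 66.2% in the bin that starts at 200. In the last bin, 290 and more, the 10 peaks without YAP are the high-background regions described in the text.

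Some of the highest pileups belonged to regions with a high background in the control rather than to enriched sites. The 10 members of highest pileup, 316 to 410, had fold enrichments of only 1.30 to 1.49. They were 7 peaks on the mitochondrial sequence and 3 peaks 929 to 5468 bp from the start of AY036118 on chromosome 17 (39980115 to 39985168), where the local background implied by pileup and fold enrichment was 237 to 286 reads, against a median of 4.24 over all members. In all, 20 members had a fold enrichment under 10 (1.30 to 9.27), as did 5 strong peaks with YAP. A further 3 members lay on unplaced sequences. The 3429 members on numbered chromosomes and X were used wherever position or sequence was needed, and leaving out the peaks with a fold enrichment under 10 changed no call for the 3 d, WT, promoter, CpG and motif shares over all positions.

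Among members with a fold enrichment of at least 10, a criterion added after the values were seen, the strongest lay in an intron of Cry2 (chr2:92267929-92268730), which encodes a repressor of the circadian clock. Its pileup was 285, and its fold enrichment was 56.2 at 7 d, 43.4 at 3 d and 15.6 in the TEAD list of WT livers. The nearest YAP peak was 1314860 bp away. The member at the promoter of Plekhg2 (summit at -149 bp from the transcription start) had the highest fold enrichment of any member at 7 d, 60.3, with 48.8 at 3 d and 22.7 in WT livers. The next ones at promoters stood at similar values. Fold enrichment at 7 d was 52.8 at Uvrag, an autophagy and membrane-trafficking gene, 59.2 at Arf2, an ADP-ribosylation factor, 58.2 at Large, a glycosyltransferase that acts on dystroglycan, and 58.0 at Grn, which encodes the secreted protein progranulin. In WT livers the overlapping peaks had fold enrichments of 18.5, 22.9, 14.8 and 20.1, respectively. These 6 members were thus TEAD peaks already without the transgene, and none lay closer than 412926 bp to a YAP peak at 7 d. The other 4 of the 10 strongest had SNORA25, Zfp648, Tmco4 and Zfp106 as nearest starts, at -51475, -60164, -580 and -141 bp. Their fold enrichments at 7 d were 42.4, 44.6, 58.0 and 55.9, and the first of them was not called in WT livers. For comparison, the strongest TEAD peaks with YAP, in Plcb1, near Alb, in Gsta3, near Mir22 and in Exph5, had TEAD fold enrichments of 61.4 to 72.3 and YAP fold enrichments of 9.58 to 13.9. Fold enrichments of different lists come from libraries of different depth and fragment length, and they are set side by side here without a test.

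Near misses of the rule were few. Of the 3439 members, 0 lay within 100 bp of a YAP peak at 7 d, 6 within 500 bp, 20 (0.582%) within 1 kb, 193 (5.61%) within 10 kb and 885 (25.7%) within 100 kb, and the median gap was 317736 bp. The nearest were a pair of members 148 bp and 175 bp from a YAP peak. The first was intergenic, 162687 bp from the nearest start, that of Cyp26a1, and the second lay in an intron of Bphl. A further 311 members (9.04%) lay within 20 kb of a strong TEAD peak with YAP, and 715 (20.8%) within 20 kb of another member. In the other YAP lists, 1 member overlapped a YAP peak at 3 d and 0 overlapped one of WT livers, against 12 and 5 of the strong peaks with YAP, and against 0.136% and 0.133% of all TEAD peaks at 7 d.

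A missing YAP peak is not a measurement of no YAP. Pileups in the YAP list at 7 d were low, with a lowest value of 18 and a median of 29. Where strong TEAD peaks overlapped YAP, the YAP pileup was 18 at the lowest, 29 at the median and 351 at the highest. It was 25 or less at 328 of these 1198 sites (27.4%). Its median was 26 at TEAD pileups of 80 to under 100, 26 at 100 to under 120, 27 at 120 to under 150 and 33 at 150 and more. It was thus higher mainly in the top class. How much YAP signal below the caller's limit the members held was not tested, since the lists hold called peaks only.

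Most members had been TEAD peaks at 3 d, and more than 1 in 2 were TEAD peaks in WT livers. The TEAD list at 3 d held a peak at 93.7% of members [92.9 to 94.5] and at 94.3% of strong peaks with YAP, a difference of -0.60 percentage points [-2.06 to 1.04], beside 71.2% of all TEAD peaks at 7 d. The WT list held a peak at 55.8% of members [54.1 to 57.4] and 58.5% of peaks with YAP, a difference of -2.74 points [-5.96 to 0.52], beside 14.1% of all TEAD peaks at 7 d. Neither of these differences left out 0. Of the members, 1906 were in both other lists, 1317 (38.3%) at 3 d but not in WT livers, 12 in WT livers only and 204 (5.93%) in neither.

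At equal pileup, members were WT peaks more often than strong peaks with YAP. The WT share was higher for members in all 4 pileup classes, at 45.9% against 37.2% for pileups of 80 to under 100, 56.1% against 51.3% at 100 to under 120, 64.9% against 54.0% at 120 to under 150 and 79.7% against 68.6% at 150 and more. The standardised difference was 8.74 points [4.80 to 12.7]. The sign of this comparison thus changed with standardisation. At 3 d the standardised difference was 2.54 points [0.15 to 4.92], and members were higher in 3 of the 4 classes. With finer pileup classes of 10 units, chosen after the values were seen, it was 1.60 points [-0.84 to 4.03], which included 0, whereas the WT difference was 9.03 points [5.06 to 13.0]. Where called in WT livers, the median fold enrichment there was 5.94 for members and 7.44 for peaks with YAP, which also differed in pileup. By pileup class it was 5.32 and 5.23 at 80 to under 100, 5.98 and 5.72 at 100 to under 120, 6.40 and 6.61 at 120 to under 150, and 8.13 and 9.03 at 150 and more.

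**Figure D2:**
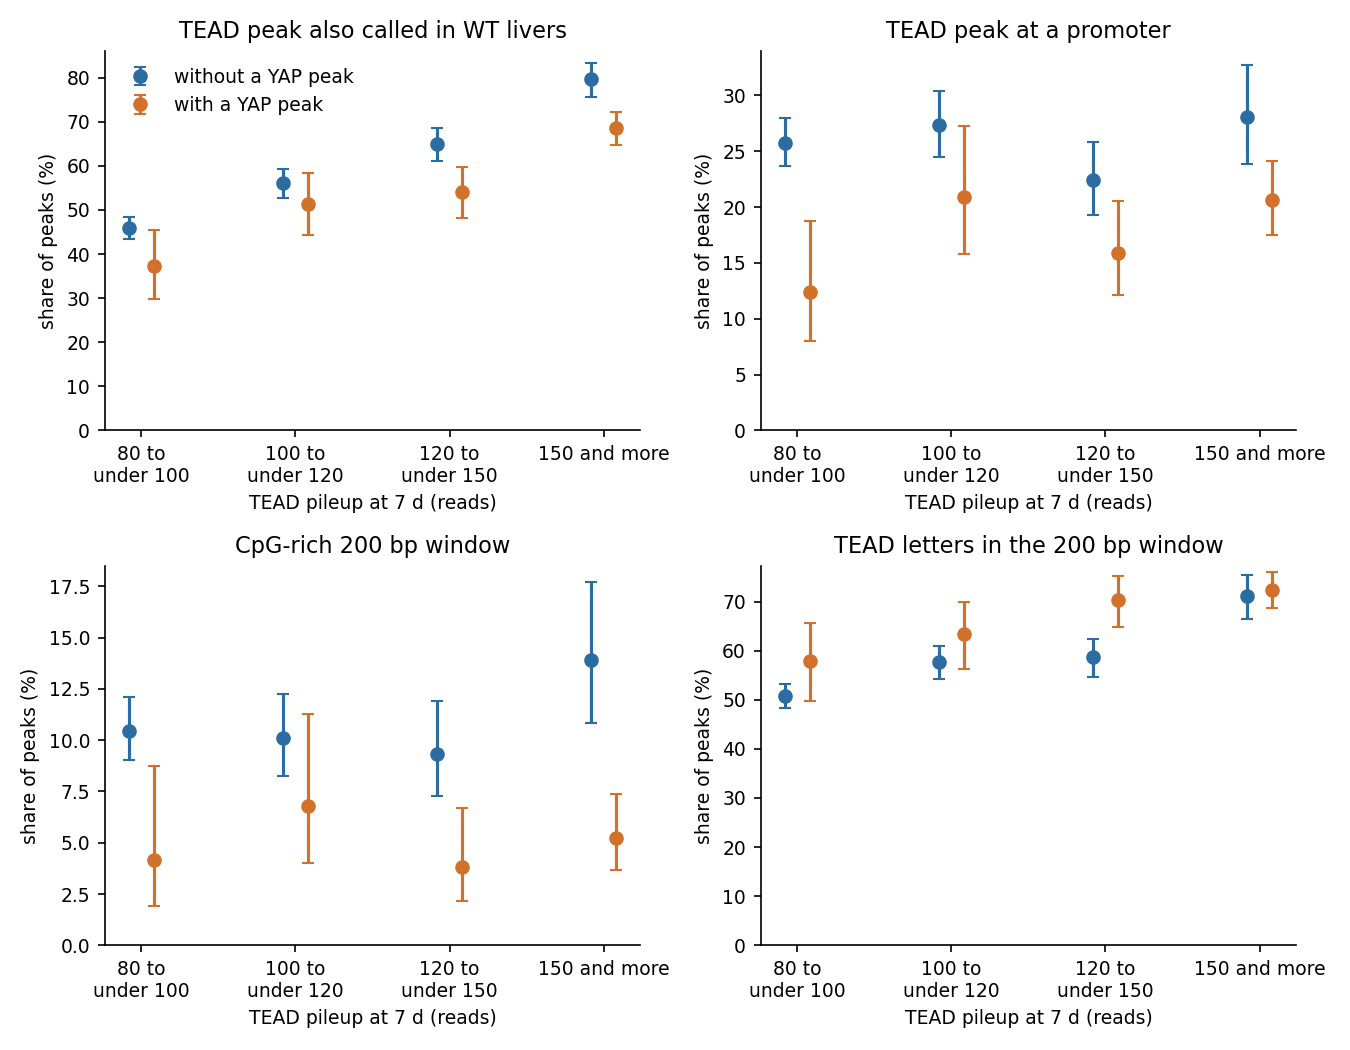
Share of strong TEAD peaks in percent (y axes) by class of TEAD pileup at 7 d in reads (x axes), for peaks without a YAP peak (blue) and with one (orange). Bars are 95% Wilson intervals over peaks. Members lie above in all 4 classes for the WT call, promoters and CpG-rich windows, and below for the TEAD letters, where the sets are closest at 150 and more (71.1% against 72.4%).

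The members with the highest WT fold enrichment were again mostly at promoters. An intergenic member at -95608 bp from the start of Oxgr1 had the highest, 24.2, with 51.0 at 3 d and 42.7 at 7 d. It was followed by the members at Arf2, Plekhg2 and Grn, and by one at Dnajb5, a heat shock cochaperone, at 19.7 (WT), 47.8 (3 d) and 54.9 (7 d). At the other end, members found at 7 d only included one in an intron of Itgb6, an epithelial integrin chain that rises in tissue injury, with a fold enrichment of 34.9 at 7 d and a YAP peak 4567 bp away. Intergenic members of this kind lay at -62295 bp from the start of Nkain2 (38.2) and at 157470 bp from that of Myof (33.3). The latter was 485 bp from a YAP peak. The cytosolic aconitase gene Aco1 had one in a coding exon (26.8). These were not called at 3 d or in WT livers, and among members called in neither list a pair of still higher pileup, in introns of Sfi1 and Cdk8, had fold enrichments of only 1.80 and 2.65.

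Members with a WT peak differed in position from those without. Promoter peaks had at least 1 bp between 2000 bp upstream and 1000 bp downstream of a transcription start, wherever the summit lay. Members with a WT peak were at promoters in 35.1% against 14.2%, a difference of 20.9 points [18.1 to 23.7]. The same difference was 13.8 points [9.53 to 17.9] in strong peaks with YAP and 7.33 points [5.98 to 8.69] over all TEAD peaks at 7 d. CpG-rich windows, with GC content of at least 50% and at least 0.6 of the CpG expected from it, were at 16.7% [15.1 to 18.4] against 2.83% [2.11 to 3.79], a difference of 13.9 points, beside 7.53 in strong peaks with YAP and 4.89 over all TEAD peaks. TEAD letters were about equally frequent, at 57.0% against 55.2%, a difference of 1.85 points [-1.49 to 5.19], beside 5.31 points [-0.02 to 10.7] in strong peaks with YAP and 18.4 points over all TEAD peaks. The AP-1 letters TGANTCA, bound by the stress- and growth-responsive FOS and JUN proteins, were less frequent in members with a WT peak, at 7.91% against 12.6%, a difference of -4.67 points [-6.76 to -2.63], beside -2.68 points [-6.34 to 0.77] in strong peaks with YAP and -1.62 points [-2.35 to -0.85] over all TEAD peaks. Pileup moved with this split, with medians of 108 with and 97 without a WT peak, and its part in these differences was not tested.

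Members were at promoters more often than strong peaks with YAP, but not more often than TEAD peaks in general. The share was 25.8% [24.4 to 27.3], or 885 of 3429, against 18.5% [16.4 to 20.8], or 222 of 1198, a difference of 7.28 points [4.57 to 9.85]. The difference was 9.20 points [6.17 to 12.2] after standardisation and was positive in all 4 pileup classes. Over all TEAD peaks at 7 d the promoter share was 29.2%, so it was the set with YAP that stood farther from the list as a whole. A further 39.6% of members lay in gene bodies and 34.6% between genes.

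Within promoters, members lay closer to the transcription start. The median distance from summit to nearest start was 226 bp for members and 559 bp for peaks with YAP, and 47.2% against 28.4% lay within 200 bp, a difference of 18.9 points [11.8 to 25.3]. The median over all promoter TEAD peaks at 7 d was 247 bp, again close to the members. Over all positions, peaks with YAP were longer, with a median length of 740 bp against 613 bp for members. A longer peak can reach a promoter with its summit farther away, and the part of length in these differences was not tested. CpG-rich windows were found at 36.4% of promoter members and 21.2% of promoter peaks with YAP, a difference of 15.2 points [8.60 to 21.0], beside 38.2% of all promoter TEAD peaks. Over all positions the shares were 10.6% and 5.01%, a difference of 5.55 points [3.85 to 7.08], beside 12.5%. Away from promoters they were 1.57% and 1.33%, a difference of 0.24 points [-0.78 to 1.03]. Median GC content was 53.0% in promoter members, 51.5% in promoter peaks with YAP and 46.5% in both sets away from promoters.

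**Figure D3:**
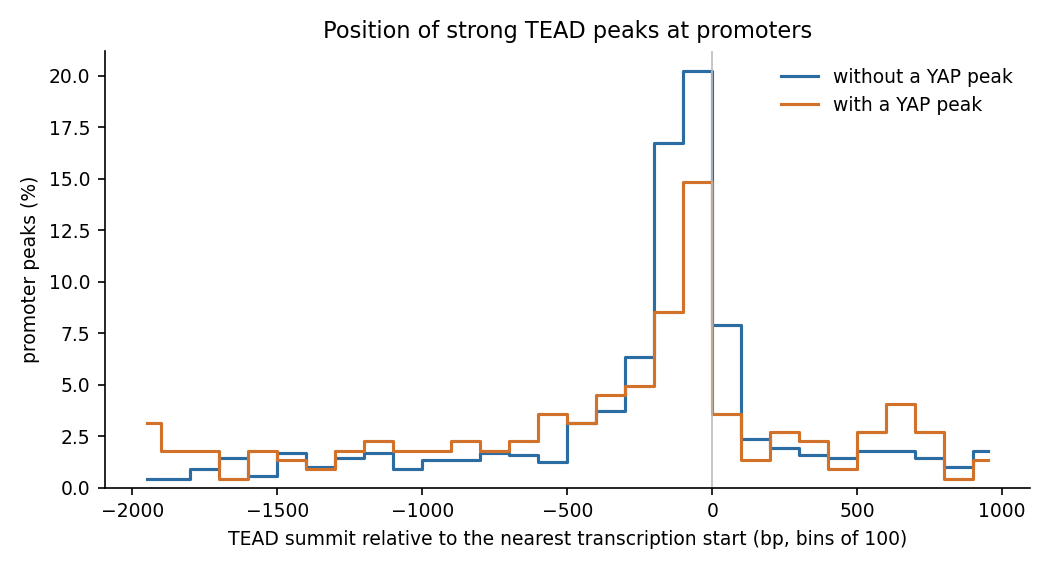
Percentage of promoter peaks (y axis) by the distance of the TEAD summit from the nearest transcription start in bp (x axis, bins of 100, negative is upstream), for 885 peaks without a YAP peak (blue) and 222 with one (orange). The blue line is higher in the bins from -200 to 100 bp. A further 78 and 29 peaks, whose summits lie beyond this range, are counted in the percentages but not drawn.

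The TEAD letters GGAATG, searched on both strands, were less frequent in members than in strong peaks with YAP. They were found in 56.2% [54.5 to 57.9] of member windows and 68.7% [66.0 to 71.3] of windows with YAP, a difference of -12.5 points [-15.6 to -9.35], and in 35.2% of the windows of all TEAD peaks at 7 d. Both strong sets thus held them more often than the list as a whole. The difference was -6.51 points [-10.5 to -2.55] after standardisation. It was small at pileups of 150 and more, with 71.1% against 72.4%, or -1.29 points [-7.15 to 4.43]. At promoters the difference was -12.7 points [-19.3 to -5.48], beside 28.0% of all promoter windows, and away from them -12.4 points [-15.8 to -8.83]. After standardisation these were -10.2 points [-20.0 to -0.48] and -6.05 points [-10.4 to -1.73]. Away from promoters, members were higher in 1 of the 4 pileup classes. More than 1 match occurred in 9.07% of members and 19.8% of peaks with YAP, beside 4.95% of all peaks. Matches lay within 25 bp of the summit in 66.6% of matches in members and 65.2% in peaks with YAP.

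The base before the TEAD letters also differed, although this comparison was chosen after the values were seen and carries no test among strong peaks. AGGAATG was in 21.5% of member windows and 38.3% of windows with YAP, beside 14.4% of all windows, and was less frequent in members in all 4 pileup classes (at 150 and more, 25.5% against 40.1%). TGGAATG was in 28.2% and 31.7%, beside 15.8%, and was more frequent in members in the lowest pileup class (25.1% against 18.6%) and the highest (40.7% against 36.6%). The tandem of GGAATG with a spacing of 3 bases, which contains the TEAD letters, was in 15 members (0.437%) and 31 peaks with YAP (2.59%), beside 0.239%. Of all 2080 words of 6 letters, AGGAAT had the most negative difference (36.8% against 57.1%), followed by CATTCC, which is GGAATG on the other strand. CCGCCC (11.2% against 6.34%) had the most positive one, followed by CCCGCC, which overlaps it and the SP and KLF letters. The weaker TEAD peaks, with pileups under 80, were not used to choose these letters. There AGGAATG was in 12.8% of 34123 peaks without YAP and 27.0% of 196 with YAP, a difference of -14.3 points [-20.9 to -8.53]. After standardisation to pileup it was -4.95 points [-12.1 to 2.22], which did not leave out 0. For GGAATG itself these differences were -18.2 points [-25.2 to -11.3] and 1.85 points [-6.74 to 10.4]. For TGGAATG they were -3.90 points [-9.87 to 0.84] and 7.03 points [3.78 to 10.3]. That standardised interval was narrower than the unstandardised one, with only 196 peaks with YAP spread over the pileup classes. Its formula gives no width to a class without matches, so the interval can be too narrow. No conclusion is drawn from the change of sign.

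Among the other letters searched, those of SP and KLF factors, NRF1 and NF-Y were more frequent in members than in strong peaks with YAP, and those of FOXA and C/EBP less frequent. The searched letters were GGGCGGG for SP and KLF factors, CCAATCA for NF-Y, CCGGAAG for ETS factors, TGACGTCA for CREB, CACGTG for E-box proteins, AAGATGGC for YY1, TGTTTAC for FOXA, CAAAGTCC for HNF4, TTGCNNAA for C/EBP, AGGTCA for nuclear receptors and TGANTCA for AP-1, and longer gapped forms for NRF1, NFI and the insulator protein CTCF, each on both strands. A match describes the letters in the window and is not a bound site.

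The SP and KLF letters were in 6.50% of members and 3.17% of peaks with YAP, a difference of 3.33 points [1.94 to 4.55], beside 6.62% of all windows. At promoters they were in 19.9% and 6.76%, a difference of 13.1 points [8.34 to 16.9], beside 17.8%. Away from promoters the direction was the opposite, with 1.85% and 2.36%, a difference of -0.51 points [-1.75 to 0.48]. The NRF1 letters were in 1.11% and 0.17%, a difference of 0.94 points [0.41 to 1.37], beside 1.16%, and the NF-Y letters in 4.40% and 2.75%, a difference of 1.65 points [0.39 to 2.73], beside 3.73%. For these letters the members were close to the list as a whole. The interval for NF-Y included 0 at pileup thresholds of 100 and 120, with 1.31 and 0.88 points, and those for NF-Y and NRF1 included 0 away from promoters, with 0.57 and 0.16 points.

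The FOXA letters, bound by pioneer factors of liver development, were in 5.95% of members and 7.93% of peaks with YAP, a difference of -1.98 points [-3.81 to -0.35], beside 5.75%. The C/EBP letters, bound by factors of mature hepatocytes, were in 15.2% and 18.9%, a difference of -3.78 points [-6.38 to -1.33], beside 14.9%. The interval for FOXA included 0 at pileup thresholds of 60, 100 and 120, in windows of 100 or 400 bp and away from promoters, and that for C/EBP at a threshold of 120 and in windows of 400 bp. The AP-1 letters were in 9.97% of members and 10.1% of peaks with YAP, a difference of -0.13 points [-2.20 to 1.77], beside 8.68%. The intervals of the remaining 8 motifs included 0 over all positions in the 200 bp windows. For E-box proteins the interval left out 0 at pileup thresholds of 60 and 120, with the stricter YAP list, with pileup classes of 10 units and in 400 bp windows (1.35 to 1.87 points). At promoters AGGTCA was in 15.0% of members and 23.0% of peaks with YAP, a difference of -7.94 points [-14.3 to -2.31], beside 14.1%. After standardisation that difference was -8.82 points [-18.0 to 0.31], which included 0. ETS letters left out 0 in 100 bp and 400 bp windows, with 0.73 and 1.94 points. The letters of HNF4, the nuclear receptor that maintains hepatocyte identity, were in 3.56% of members and 3.09% of peaks with YAP, beside 3.04%, and AGGTCA in 21.6% and 22.3%, beside 20.5%. The CTCF letters were in 2.54% and 1.84%, beside 3.56%, and those of YY1 in 1.11% and 0.75%, beside 1.11%. Shares for ETS factors were 2.33% and 1.67%, beside 3.15%, for E-box proteins 4.26% and 3.01%, beside 4.41%, and for CREB 0.61% and 0.42%, beside 0.696%. NFI letters were in 3 members and 0 peaks with YAP, beside 0.0488%, where the 95% Wilson interval of the count of 0 reaches 0.320%. The 15 motifs were compared with 95% intervals that were not widened for their number.

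**Figure D4:**
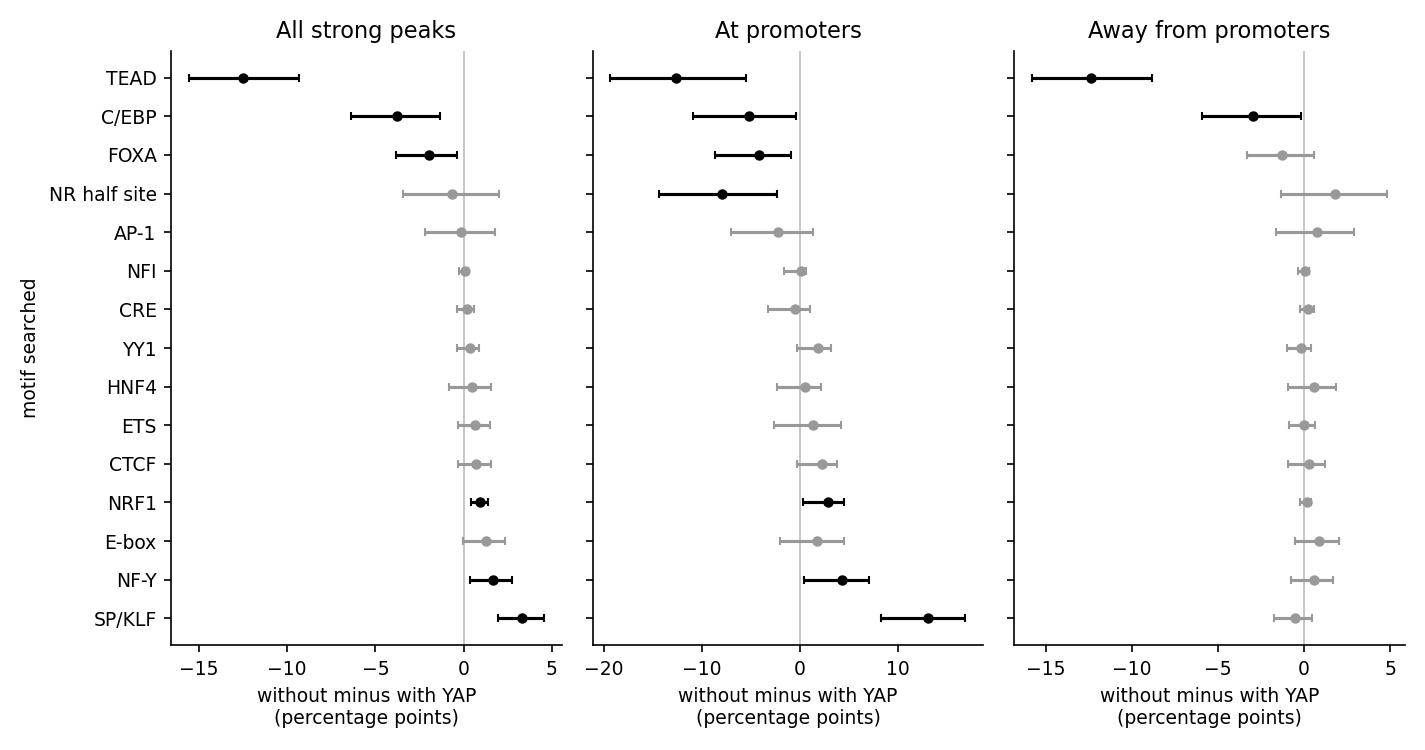
Difference in the share of 200 bp windows that held the letters of each motif, strong TEAD peaks without YAP minus those with YAP, in percentage points (x axes, scales differ), for all peaks, promoter peaks and other peaks. Points are differences and bars 95% Newcombe intervals over peaks, black where they leave out 0. TEAD letters are lower in members in all 3 panels, and SP/KLF letters are higher at promoters but not away from them.

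Genes of the TEAD family were among those with a member at the promoter. Over all 22238 protein-coding gene symbols, 878 (3.95%) had one, 215 (0.967%) had a strong peak with YAP and 17 had both. The lists below are small and were chosen with earlier results of these data known. They are described by counts only.

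Of 8 genes that encode TEADs or their VGLL cofactors, 4 had a member at the promoter and 0 had a strong peak with YAP there. Tead4 had a pair of them. The stronger, in the UTR with its summit at 277 bp from the start, had TEAD fold enrichments of 9.70 (WT), 32.0 (3 d) and 54.9 (7 d), with 3 copies of the TEAD letters. The other, at -1289 bp, is the third window printed above. It was called at 7 d only, with a fold enrichment of 18.2. The members at Tead4 were 74389 bp and 76314 bp from the nearest YAP peak. At Tead1 the member had fold enrichments of 4.52, 14.6 and 19.1 in the same order, with the nearest YAP peak 108808 bp away. Strong peaks with YAP did occur elsewhere around these genes. Within 20 kb of the gene there was 1 at Tead4, 1 at Tead1 and 3 at Vgll4. The study itself reports, from genome tracks, that YAP as well as TEAD bound the Tead1 and Tead4 promoters and nearby enhancers. The lack of a called YAP peak at these members is thus not a lack of YAP.

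Vgll4 encodes a cofactor that competes with YAP for TEADs. It had members at a pair of its starts, with fold enrichments at 7 d of 35.8 and 19.7, and WT values of 10.1 and 5.29. The stronger was only 1047 bp from a YAP peak. Vgll3 had a member with 7.39 at 3 d and 20.3 at 7 d that was not called in WT livers.

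Of 23 canonical YAP target genes, 3 had a member at the promoter and 3 others a strong peak with YAP. The members were at Cyr61, a secreted matricellular protein, Lats2, the kinase that inhibits YAP in a feedback loop, and Nuak2, a kinase of the AMPK family. The member at Cyr61 (summit at -90 bp) had TEAD fold enrichments of 11.6 (WT), 28.1 (3 d) and 36.5 (7 d), and the nearest YAP peak was 261669 bp away. At Lats2 (-2 bp) the values were 11.2, 28.1 and 41.2, and the nearest YAP peak was 1805732 bp away. Nuak2 had a pair of members. The stronger (-161 bp) had 8.46, 24.7 and 41.1, and the nearest YAP peak was 17344 bp away. Ctgf, Amotl2 and Ptpn14, also canonical targets, had the strong peaks with YAP. Fold enrichments at 7 d were 54.8 for TEAD and 10.5 for YAP at Ctgf, 59.6 and 10.7 at the strongest Amotl2 peak, and 35.8 and 5.24 at Ptpn14. In TEAD enrichment at 7 d the members at Cyr61 and Lats2 and the stronger one at Nuak2 stood within the range of these 3, and the other Nuak2 member, at 19.7, below it. In the Hippo pathway list of 18 genes, which shares Lats2 and Amotl2 with the targets, Yap1 itself also had a member. Its fold enrichment was 7.67 at 3 d and 21.5 at 7 d, it was not called in WT livers, and it held 0 copies of the TEAD letters. Wwc2, a scaffold that activates LATS kinases, had a strong peak with YAP. The members at Yap1 and Lats2 and the weaker one at Nuak2 lay at starts inside the annotated gene, not at its outermost start.

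**Figure D5:**
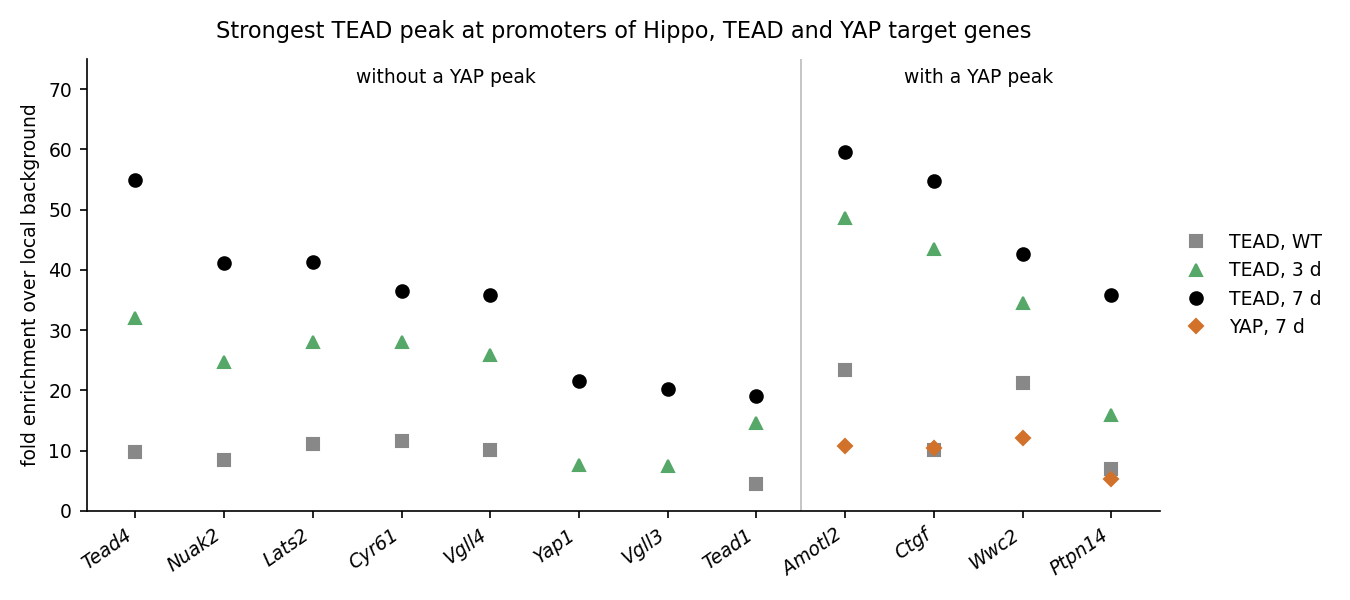
Fold enrichment over local background (y axis) of the strongest TEAD peak of each set at promoters of Hippo pathway, TEAD, VGLL and canonical YAP target genes (x axis), in the TEAD lists of WT livers (grey squares), 3 d (green triangles) and 7 d (black circles), and of the overlapping YAP peak at 7 d (orange diamonds). A missing symbol means that no peak was called. In each gene drawn the TEAD value is highest at 7 d.

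Genes of hepatocyte function also carried members. Of 25 genes for plasma proteins, 4 had a member (Fga, Fgb, Vtn and Apoe) and 0 a strong peak with YAP. Fga and Fgb encode fibrinogen chains. TEAD fold enrichments at Fga were 5.45 (WT), 15.3 (3 d) and 24.7 (7 d). Fgb (8.90 at 3 d, 14.1 at 7 d) and Vtn (13.5 and 22.2), which encodes vitronectin, were not called in WT livers. Apoe, an apolipoprotein gene, had 6.86, 12.3 and 18.9. Of 20 hepatocyte transcription factor genes, 3 had a member and 0 a strong peak with YAP. The strongest was at Onecut1 (HNF6), with 7.84 (WT), 28.1 (3 d) and 39.4 (7 d). Rxra, a nuclear receptor partner, had 5.58, 19.2 and 22.4, and Ppara, the receptor that controls fatty acid oxidation, had 5.18, 19.2 and 21.4.

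Junction and cytoskeleton genes held both sets. Of 25 such genes, 5 had a member, among them Actn1, Actn4, Tln1 and Vcl, and 3 a strong peak with YAP (Itgb5, Myh9 and Tln1). Actn4, an actin crosslinker, had 4 members across its starts, with fold enrichments at 7 d of 16.5 to 28.3, and each was also called in WT livers. Vcl, which encodes the adhesion protein vinculin, had 7.05, 20.5 and 21.7. At Tln1, which encodes talin, the peak with YAP was the stronger (41.9, against 14.6 at the member, whose summit lies in the UTR of Creb3). The members named here were thus weaker than the peaks with YAP, which had 36.1 at Itgb5 and 62.9 at Myh9. Of 12 AP-1 genes, 2, Atf3 and Mafk, had a strong peak with YAP and 0 a member. Of 12 biliary and progenitor genes, 1, the epithelial keratin gene Krt18, had a strong peak with YAP and 0 a member. Lists of this length are too short to set a count of 0 apart from the share over all genes.

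Housekeeping genes carried members at shares both below and above the 3.95% of all genes. Members were found at 3 of 81 ribosomal protein genes (3.70%), 3 of 93 oxidative phosphorylation genes (3.23%), 4 of 40 proteasome genes (10%), 5 of 49 splicing genes (10.2%) and 1 of 58 translation initiation genes (1.72%), and strong peaks with YAP at 0, 0, 1, 0 and 1. Most genes of these lists had a TEAD peak of some strength, for example 63 of the ribosomal protein genes, beside 37.7% of all protein-coding genes. The strongest members were at Snrpd2, a core spliceosomal protein (8.07 (WT), 25.3 (3 d) and 36.5 (7 d)), and at Eif2s1, the alpha subunit of initiation factor 2 (5.32, 23.5 and 35.8). At the proteasome gene Psmd3 the values were 10.9, 26.7 and 26.7. Each of these 3 members lay at least 38741 bp from a YAP peak.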

How the data were processed

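Per the labels, file headers and the study's methods, the authors masked low-quality bases, aligned reads to mm9 with BWA 0.6.2, merged the replicates of each group, removed duplicates and called peaks with MACS 2.0.9 (p-value cutoff 1e-05) against 1 control library from published data. The deposited pileup is a signal, the fragments stacked on the summit, and the deposited fold enrichment is its ratio to the local background. Each peak's deposited −log10 p-value served here as an alternative filter only. The caller's fragment length was 250 bp for YAP, 400 bp for TEAD in WT livers, 207 bp at 3 d and 206 bp at 7 d.

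From these lists, overlaps of at least 1 bp, Wilson and Newcombe intervals, and shares standardised to pileup classes were computed (Python 3.11.15, pandas 2.3.3, scipy 1.17.1, pysam 0.24.0), tested on simulated data first. Sequence and GENCODE genes were of the mm9 assembly (NCBIM37), in which no peak on a named sequence ended past its length. The authors' lists carry no replicates, so no p-value was computed. Members, gene lists and motifs were chosen with earlier results of these data known. Regions named were those of highest or lowest pileup, of highest fold enrichment in the WT and 3 d lists, called at 7 d only, nearest to YAP, or at promoters of listed genes. Repeat content was not analysed here because the genome used had no repeat masking.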

Additional observations from a re-analysis of the deposited data

How the results depend on the processing

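No paired analysis was possible because each list stands for all replicates of its group at once. Leaving out a replicate was not possible for the same reason. The number of members was 6525 at a pileup threshold of 60, 1879 at 100 and 1016 at 120, and 3419 to 3661 under 6 other rules for YAP overlap, fold enrichment and chromosomes. The differences in promoter share (5.13 to 9.81 points), CpG-rich windows (4.68 to 6.95 points) and TEAD letters (-16.3 to -5.93 points) kept their sign, with intervals that left out 0, under each of 13, 12 and 15 alternatives, which include pileup classes of 10 units, chosen after seeing the data. The share called at 3 d, -0.60 points, was -1.78 at a threshold of 60 and 2.54 when standardised to the 4 pileup classes, with intervals that left out 0, but 1.60 with classes of 10 units, with one that included it. The share called in WT livers, -2.74 points, was -12.1 at a threshold of 60 and -5.66 in distal peaks, and it changed sign to 6.98 at a threshold of 120, 8.74 when standardised to the 4 classes and 9.03 to classes of 10 units, all with intervals that left out 0. The distal difference also changed sign when standardised to the 4 classes, to 5.84 points [1.54 to 10.1], with distal members higher in all 4. For the other 14 motifs, whether the interval left out 0 was unchanged in 189 of 210 settings. The sign changed in 13, and in 12 of these the intervals included 0 both ways. The exception was the SP and KLF letters in distal peaks (-0.51 points). The causes were not tested. A limit of 18 reads for the lowest YAP peak means that weaker YAP signal at members was not measured.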
